A study of Homo sapiens with 6 samples.

Results

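The replication machinery described here is a list of 54 genes that copy DNA, chosen by name from 12 complexes or steps: origin recognition, licensing, the MCM2-7 helicase, its partners CDC45 and GINS, firing factors, the 3 replicative polymerases, the PCNA clamp with its RFC loader, RPA, Okazaki fragment maturation and fork protection. The list was chosen with earlier results of these data known. All 54 were found in the deposited table of 39771 Ensembl gene identifiers, and all 54 were among the 13072 genes tested. The table holds 6 RNA sequencing libraries of MOLM-13, a human acute myeloid leukaemia line with the MLL-AF9 translocation. In 4 libraries the cells carried a lentiviral hairpin against LAMP5 (shLAMP5), and in 2 a non-targeting hairpin (shNT). Both groups were grown in the same medium, transduced and selected with puromycin. The data come from 1 line, and the labels do not tell which hairpin each shLAMP5 library had or when it was taken. Whether the libraries within a group are separate cultures is not stated, so p-values speak only for the spread among these 6, and that spread may be technical.

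Before a cell divides, origins of replication are licensed in G1: the origin recognition complex (ORC), CDC6 and CDT1 load the ring of MCM2 to MCM7 onto DNA, and geminin (GMNN) blocks a second loading. At the G1/S boundary, kinases and firing factors add CDC45 and GINS to that ring and so make the active helicase. Many of these genes are transcribed in late G1 and S phase under E2F factors, and their RNA is scarce in cells that have left the cycle. In bulk RNA, fewer cells in S phase and less of a transcript per cell cannot be told apart.

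The targeted gene was lower in the libraries labelled shLAMP5. LAMP5 measured 80.6, 65.6, 68.8 and 86.7 TPM (transcript abundance corrected for length and scaled to the library) in shLAMP5 1 to 4, against 170 and 282 TPM in shNT 1 and 2. The groups did not overlap. The log2 fold change was -1.54 (SE 0.25, limma adjusted p 0.252). An exact permutation test, two-sided, gave p = 0.0667, which is its floor with 15 ways to split the libraries. All 8 myeloid line markers checked, such as CD33, MPO and SPI1, reached 1 TPM. Of 4 T cell markers, 1 (CD3D) reached that level. Their summed level was 1.89 to 8.76 TPM in shLAMP5 and 2.27 to 3.85 TPM in shNT, with CD3E and CD2 at or near 0. Of 6 fibroblast markers, VIM and COL1A1 reached 1 TPM and COL3A1 was listed at 0 in all 6. VIM, which leukaemia cells express too, put that list's sum at 318 to 684 TPM in shLAMP5 and 323 to 547 TPM in shNT. Read depth is unknown, since TPM keeps none. Library shLAMP5 2 stood apart in scale. There, 57.2% of all genes lay below both shNT libraries, against 29.7% in shLAMP5 1, 37.6% in shLAMP5 3 and 32.4% in shLAMP5 4, and its median scaling factor was 0.838 against 0.997 to 1.06 elsewhere.

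Replication genes were lower in the shLAMP5 libraries almost throughout. Of the 54, 53 had a negative log2 fold change and 1, POLD4, a positive one. Each log2 fold change is the mean log2(TPM + 1) of shLAMP5 minus that of shNT, which understates the change of scarce genes. The members' median was -0.76, against -0.0060 over all genes tested, where 50.7% were negative. For 39 members (72.2%) each shLAMP5 library measured less than either shNT library, a position held by 13.5% of all genes. The groups overlapped for 14 members. For POLD4 each shLAMP5 library measured more than either shNT library, as it did for 8.25% of all genes.

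No member passed limma at an adjusted p of 0.05, and neither did any other gene (0% of 13072), although 686 genes were lower and 486 higher at an unadjusted p under 0.05. Adjusted calls over all genes numbered 210 with library weights and 14 with no filter on low values. The smallest adjusted p among the members was 0.440, for ORC1, and the largest 0.933, for ORC2. At an unadjusted limma p under 0.05, 31 members were lower (57.4%) against 5.25% of all genes, and 1 was higher against 3.72%. The count of 31 became 18 without shNT 1, where 1.78% of all genes were lower at that p, and 8 without shNT 2, where 1.62% were. It was 16 without shNT 1 and shLAMP5 2 together, against 2.84% of all genes. With library weights estimated from the data, 3 members passed in limma, at adjusted p 0.0380 for ORC1, 0.0469 for MCM2 and 0.0485 for POLA2. Of all 13072 genes, 94 passed as lower and 116 as higher in that setting. Those weights were 1.54, 0.193, 0.503 and 3.41 for shLAMP5 1 to 4, and 1.40 for each shNT library, so shLAMP5 4 counted most.

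The shLAMP5 libraries were not alike. Summed over the 54 genes, the level was 2649, 2111, 1535 and 2261 TPM in shLAMP5 1 to 4, and 3216 and 3730 TPM in shNT 1 and 2. The median member stood at 79.3% of its shNT mean in shLAMP5 1, 51.9% in shLAMP5 2, 36.5% in shLAMP5 3 and 61.1% in shLAMP5 4. The order was shared among members: shLAMP5 3 was the lowest of the 4 for 43 of 54 (79.6%), against 17.0% of all genes. In unscaled TPM, the full order 3, 2, 4, 1 from low to high held for 31 members (57.4%) and 5.18% of all genes. The place of shLAMP5 2 in it depended on that library's scale. There the median gene tested stood at 83.6% of its shNT mean, against 103%, 102% and 102% in shLAMP5 1, 3 and 4. LAMP5, in unscaled TPM, was lowest in shLAMP5 2 (65.6 TPM, against 68.8 TPM in shLAMP5 3), so its order depended on scale as well. Orders after scaling are not given here. Of the 8 myeloid markers, 4 (SPI1, PTPRC, CEBPA and HOXA9) were highest of the 6 libraries in shLAMP5 3 and 4 (CD33, MPO, FLT3 and MEIS1) were highest elsewhere. MPO, for one, measured 17.2 TPM in shLAMP5 3, against 17.6 and 43.2 TPM in shNT. The 8 summed to 516 to 930.2 TPM in shLAMP5, with shLAMP5 3 at the top, and to 558 to 586 TPM in shNT. The part of these levels in the low replication genes was not tested.

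**Figure D1:**
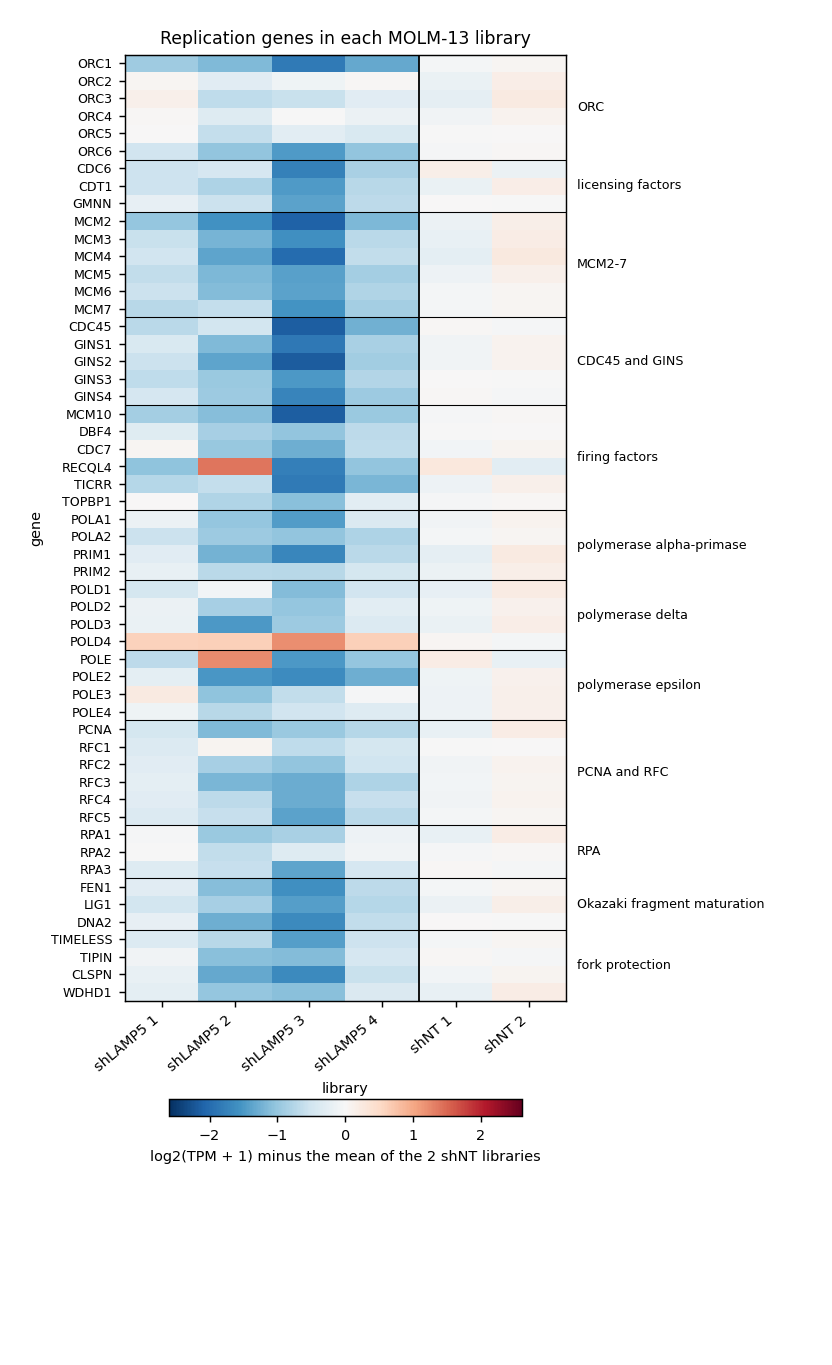
Each row is 1 of the 54 replication genes and each column 1 library, with shLAMP5 1 to 4 left of the line and shNT 1 and 2 right of it; colour gives log2(TPM + 1) minus the mean of the 2 shNT libraries. Values run from -2.17 to 1.39 in shLAMP5 and from -0.28 to 0.28 in shNT; shLAMP5 3 is the darkest blue column, and POLD4 in all 4 shLAMP5 libraries and RECQL4 and POLE in shLAMP5 2 hold the strongest reds.

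Library by library, members below both shNT libraries numbered 43, 49, 51 and 50 in shLAMP5 1 to 4. After median scaling they numbered 47, 47, 51 and 51, where 35.8%, 39.3%, 39.7% and 37.1% of all genes lay below. In all 4 libraries together 42 scaled members were below, against 13.7% of all genes. Without shLAMP5 2 the members' median log2 fold change was -0.78.

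Because the members were lower together, their promoters were searched for the E2F motif, written as TTTCCCGC, TTTCGCGC, TTTGCCGC or TTTGGCGC on either strand, with overlapping matches counted apart. RefSeq promoters (GRCh38.p14, 250 bases before to 50 after a start) were matched for 46 members with 61 starts; MCM4, MCM5, GINS4, RECQL4, POLD3, RPA2, RPA3 and DNA2 were not matched. The motif was in 23 of the 61 promoters (37.7%), against 3.31% of all 35116. By gene, 23 of the 46 had it at 1 start or more (50%), against 3.99% of all genes and 5.40% of protein-coding genes. Where a match was found the median log2 fold change was -0.88, with 18 of 23 genes below both shNT libraries. Where none was found it was -0.68, with 15 of 23 below. A CCAAT box (CCAAT) was in 58.7% of the 46 and in 39.7% of all genes, and the CHR element (TTTGAA) in 4.35% against 18.2%. A match is a run of letters and does not show that a factor binds there.

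Promoters of 6 members are shown as examples of windows with and without the motif, and they were picked with the fold changes known. The motif did not sort the members: ORC1 (-1.31), MCM10 (-1.28), CDC45 (-1.14) and ORC6 (-1.01) had no match, while ORC3 (-0.35) and POLE4 (-0.42) had one. MCM2 (chr3:127598161-127598460, plus strand), MCM6 (chr2:135876394-135876693, minus strand), CDC6 (chr17:40287629-40287928, plus strand) and GINS1 (chr20:25407423-25407722, plus strand) hold the motif, printed in capitals. ORC2 (chr2:200963611-200963910, minus strand) and POLD4 (chr11:67353497-67353796, minus strand) hold no match in this window. POLD4 has a second RefSeq start, also without a match. All are GRCh38.p14, from RefSeq, and run 5′ to 3′ on the gene's strand.
MCM2: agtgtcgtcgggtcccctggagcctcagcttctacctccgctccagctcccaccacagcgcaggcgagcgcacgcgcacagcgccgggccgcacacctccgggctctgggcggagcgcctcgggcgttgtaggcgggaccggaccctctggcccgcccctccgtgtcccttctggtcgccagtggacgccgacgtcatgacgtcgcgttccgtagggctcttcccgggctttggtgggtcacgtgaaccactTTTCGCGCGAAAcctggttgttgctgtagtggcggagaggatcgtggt
MCM6: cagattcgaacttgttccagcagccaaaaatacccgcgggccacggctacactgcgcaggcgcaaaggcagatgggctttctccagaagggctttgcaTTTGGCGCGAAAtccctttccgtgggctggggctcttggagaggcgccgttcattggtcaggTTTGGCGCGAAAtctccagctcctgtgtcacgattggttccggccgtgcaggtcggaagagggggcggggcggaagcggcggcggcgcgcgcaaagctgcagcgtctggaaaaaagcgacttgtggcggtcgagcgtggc
CDC6: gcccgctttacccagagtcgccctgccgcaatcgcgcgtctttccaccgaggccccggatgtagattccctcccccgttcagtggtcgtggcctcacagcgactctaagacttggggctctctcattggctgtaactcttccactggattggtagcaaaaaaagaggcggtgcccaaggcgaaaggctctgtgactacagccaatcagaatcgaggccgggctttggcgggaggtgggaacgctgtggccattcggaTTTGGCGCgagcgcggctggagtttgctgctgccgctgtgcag
GINS1: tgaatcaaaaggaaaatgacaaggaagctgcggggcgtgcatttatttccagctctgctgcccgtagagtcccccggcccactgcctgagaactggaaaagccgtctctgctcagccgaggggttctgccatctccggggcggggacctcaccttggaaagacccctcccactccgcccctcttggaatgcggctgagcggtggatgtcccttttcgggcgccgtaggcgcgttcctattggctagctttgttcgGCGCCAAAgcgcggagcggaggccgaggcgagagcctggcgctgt
ORC2: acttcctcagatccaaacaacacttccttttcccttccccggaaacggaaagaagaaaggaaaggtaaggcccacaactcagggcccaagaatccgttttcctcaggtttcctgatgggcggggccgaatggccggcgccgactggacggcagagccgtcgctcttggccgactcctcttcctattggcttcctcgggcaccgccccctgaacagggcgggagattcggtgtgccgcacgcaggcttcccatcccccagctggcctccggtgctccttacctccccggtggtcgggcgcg
POLD4: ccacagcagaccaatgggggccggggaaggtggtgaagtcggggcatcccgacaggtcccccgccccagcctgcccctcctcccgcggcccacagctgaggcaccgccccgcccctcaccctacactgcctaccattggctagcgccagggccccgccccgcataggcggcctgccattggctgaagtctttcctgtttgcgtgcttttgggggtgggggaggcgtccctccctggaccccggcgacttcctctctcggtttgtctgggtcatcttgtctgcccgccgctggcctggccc

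In MCM2 and MCM6 each capital run holds 2 matches that overlap on opposite strands, and MCM6 has 2 such runs. GINS1 has its match on the other strand.

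The ORC genes split. ORC1, the subunit whose amount is known to swing through the human cell cycle, measured 13.4, 11.3, 6.56 and 9.73 TPM in shLAMP5 1 to 4, against 25.1 and 27.3 TPM in shNT. ORC6, the smallest subunit, measured 16.5, 11.1, 7.86 and 11.1 TPM in shLAMP5 and 23.3 and 24.1 TPM in shNT. Both lay below both shNT libraries in every shLAMP5 library, with log2 fold changes of -1.31 (SE 0.27) and -1.01 (SE 0.27). ORC2, a core subunit, measured 19.7, 15.3, 17.5 and 19.6 TPM in shLAMP5 and 16.8 and 21.6 TPM in shNT, so the groups overlapped. Its log2 fold change was -0.081 (95% interval -0.56 to 0.39). ORC3, ORC4 and ORC5, which form the rest of the ring with ORC1 and ORC2, overlapped as well, at -0.35, -0.11 and -0.32. ORC1 had 0.678, 0.740, 0.374 and 0.497 times the TPM of ORC2 in shLAMP5 1 to 4, against 1.496 and 1.263 times in shNT 1 and 2. ORC1 thus exceeded ORC2 in both shNT libraries and in no shLAMP5 library.

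Licensing factors were lower in all 4 shLAMP5 libraries. CDC6, the ATPase that joins ORC, measured 25.2, 27.0, 10.2 and 20.2 TPM in shLAMP5 1 to 4, against 40.8 and 33.2 TPM in shNT (log2 fold change -0.89, SE 0.37). CDT1, which brings in the MCM ring, measured 15.1, 12.5, 7.39 and 13.1 TPM in shLAMP5, against 19.9 and 25.3 TPM in shNT (-0.89, SE 0.29). Geminin, the inhibitor of CDT1, measured 76.0, 59.4, 33.0 and 54.5 TPM in shLAMP5 and 88.8 and 86.99 TPM in shNT (-0.71, SE 0.31). No library broke the pattern, and shLAMP5 3 was lowest for all of them. GMNN stood at 5.03, 4.74, 4.47 and 4.15 times the TPM of CDT1 in shLAMP5 1 to 4, and at 4.46 and 3.44 times in shNT, so that ratio overlapped.

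All 6 subunits of the MCM2-7 ring, the motor of the replicative helicase, lay below both shNT libraries in every shLAMP5 library. MCM2 had the most negative log2 fold change of the 54 genes, at -1.46 (SE 0.32, 95% interval -2.19 to -0.73). It measured 39.2, 26.3, 17.9 and 35.1 TPM in shLAMP5 1 to 4, against 71.7 and 89.3 TPM in shNT, and its shLAMP5 mean was 36.8% of the shNT mean. MCM4, the most abundant subunit, measured 322, 175, 113 and 289.8 TPM in shLAMP5 and 381 and 539 TPM in shNT (-1.13, SE 0.42). The libraries nearest each other across the groups were shLAMP5 1 and shNT 1, at 322 and 381 TPM, and MCM4 had the widest standard error of the ring. MCM7 measured 129.9, 139.7, 72.7 and 117 TPM in shLAMP5 against 209 and 222 TPM in shNT (-0.94, SE 0.28).

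MCM3 measured 92.2, 59.2, 45.1 and 83.7 TPM in shLAMP5 1 to 4 and 121 and 157 TPM in shNT (log2 fold change -1.02). MCM5 measured 91.8, 63.5, 53.4 and 77.9 TPM in shLAMP5 and 132 and 158 TPM in shNT (-1.03). MCM6 measured 65.8, 44.6, 36.7 and 56.7 TPM in shLAMP5 and 94.7 and 101.2 TPM in shNT (-0.96). These subunits sat close to MCM7, while MCM2 stood apart at the low end. Summed over the ring, the level was 741, 508, 339 and 660.2 TPM in shLAMP5 1 to 4, and 1009 and 1265 TPM in shNT. MCM2 made up 5.30%, 5.17%, 5.29% and 5.32% of that sum in shLAMP5, against 7.11% and 7.06% in shNT. Its share was thus lower in every shLAMP5 library, while MCM4 ranged from 33.3% to 43.9% in shLAMP5 and was 37.8% and 42.6% in shNT.

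**Figure D2:**
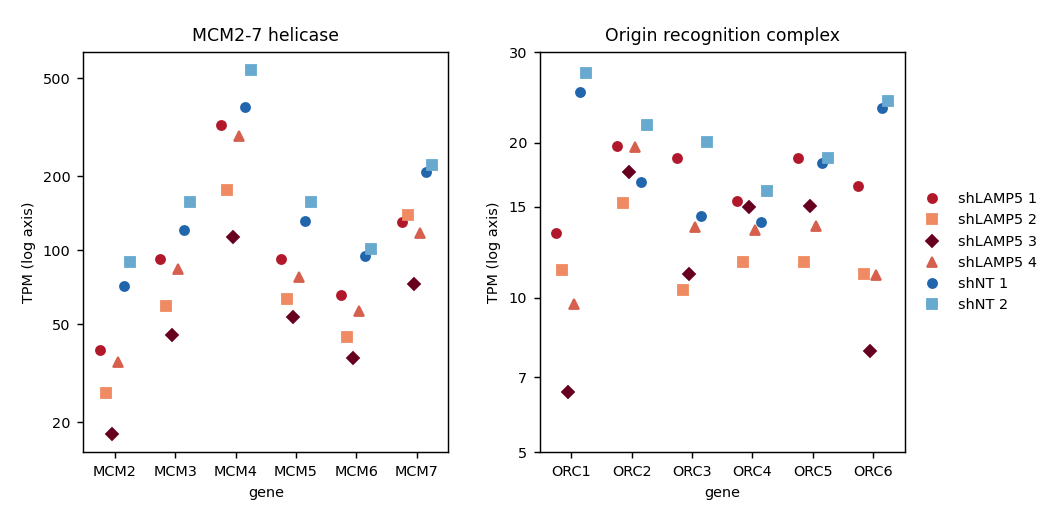
Points give TPM on a log axis for the MCM2-7 genes (left) and the ORC genes (right) in each library, shLAMP5 in reds and shNT in blues. The reds lie below the blues for every MCM gene, for ORC1 and for ORC6, and mix with the blues for ORC2 to ORC5.

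CDC45 and the GINS tetramer, which complete the helicase, had the lowest median of the 12 groups, at -1.05, and all 5 genes lay below both shNT libraries. CDC45 measured 28.2, 33.3, 9.85 and 19.2 TPM in shLAMP5 1 to 4 and 48.0 and 45.3 TPM in shNT (log2 fold change -1.14, SE 0.43). Its spread within shLAMP5 was over 3-fold, from shLAMP5 3 to shLAMP5 2. GINS3 had the smallest p of the group. It measured 8.65, 6.87, 4.45 and 8.06 TPM in shLAMP5 and 14.5 and 14.1 TPM in shNT (-0.97, SE 0.26). GINS2 (-1.25), GINS1 (-1.05) and GINS4 (-1.01) were alike in direction, and GINS2 in shLAMP5 3 reached 17.8% of its shNT mean, the lowest such value of any member.

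Firing factors were mixed. MCM10, which helps the helicase to start, measured 12.1, 10.1, 4.47 and 11.3 TPM in shLAMP5 1 to 4 and 22.5 and 23.8 TPM in shNT (log2 fold change -1.28, SE 0.35). TICRR (treslin), which brings CDC45 to origins, had -1.10. DBF4, the activating subunit of the CDC7 kinase, had -0.72, and all 3 of these lay below both shNT libraries. CDC7 itself (-0.71) and TOPBP1 (-0.53), the partner of TICRR, overlapped because shLAMP5 1 lay among the shNT values. RECQL4, a helicase of the initiation step, measured 52.4, 288.5, 31.3 and 53.6 TPM in shLAMP5 and 133 and 90.3 TPM in shNT. In 3 shLAMP5 libraries it was below both shNT libraries, and in shLAMP5 2 it was more than 2-fold above them. Its log2 fold change of -0.62 (SE 0.76) was -1.28 without shLAMP5 2.

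The polymerases differed by subunit. Polymerase alpha-primase lays the primers, and all 4 of its genes were below both shNT libraries. POLA2, its accessory subunit, measured 28.6, 21.6, 20.6 and 24.0 TPM in shLAMP5 1 to 4 and 41.2 and 44.1 TPM in shNT (log2 fold change -0.83, SE 0.20). POLA1, the catalytic subunit, measured 11.1, 5.72, 3.93 and 9.44 TPM in shLAMP5 and 11.6 and 13.4 TPM in shNT (-0.75, SE 0.36), with shLAMP5 1 just under shNT 1. The primase genes PRIM1 and PRIM2 had -0.98 and -0.51.

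Polymerase delta makes the lagging strand. POLD1, its catalytic subunit, measured 32.4, 42.6, 20.02 and 31.5 TPM in shLAMP5 1 to 4 and 38.4 and 52.6 TPM in shNT (log2 fold change -0.54), and overlapped through shLAMP5 2. POLD2 (-0.57) and POLD3 (-0.74) lay below both shNT libraries. POLD4, the smallest subunit, known to be degraded in S phase and after DNA damage, went the other way. It measured 89.9, 90.7, 137 and 91.0 TPM in shLAMP5 and 60.8 and 57.1 TPM in shNT (0.76, SE 0.23, 95% interval 0.23 to 1.29; limma adjusted p 0.505). Per TPM of POLD1, POLD4 stood at 2.77, 2.13, 6.84 and 2.89 in shLAMP5, against 1.58 and 1.08 in shNT. The library with the least replication RNA, shLAMP5 3, thus had the most POLD4. An annotated gene on the same strand, AP003419.1, shares exons with POLD4 and measured 4.42, 39.2, 8.05 and 2.47 TPM in shLAMP5 and 9.48 and 13.1 TPM in shNT. How reads were divided between the 2 genes was not tested.

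Polymerase epsilon makes the leading strand. Its catalytic gene POLE measured 17.0, 66.8, 9.24 and 13.3 TPM in shLAMP5 1 to 4 and 31.8 and 24.4 TPM in shNT, and like RECQL4 was highest in shLAMP5 2. The log2 fold change of -0.49 (SE 0.66) became -1.06 without that library. POLE2, the second subunit, measured 14.1, 5.27, 4.76 and 6.48 TPM in shLAMP5 and 15.6 and 18.4 TPM in shNT (-1.17, SE 0.38), below both shNT libraries throughout. POLE3 and POLE4, histone-fold subunits that bind histones at the fork, had -0.37 and -0.42 and overlapped.

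**Figure D3:**
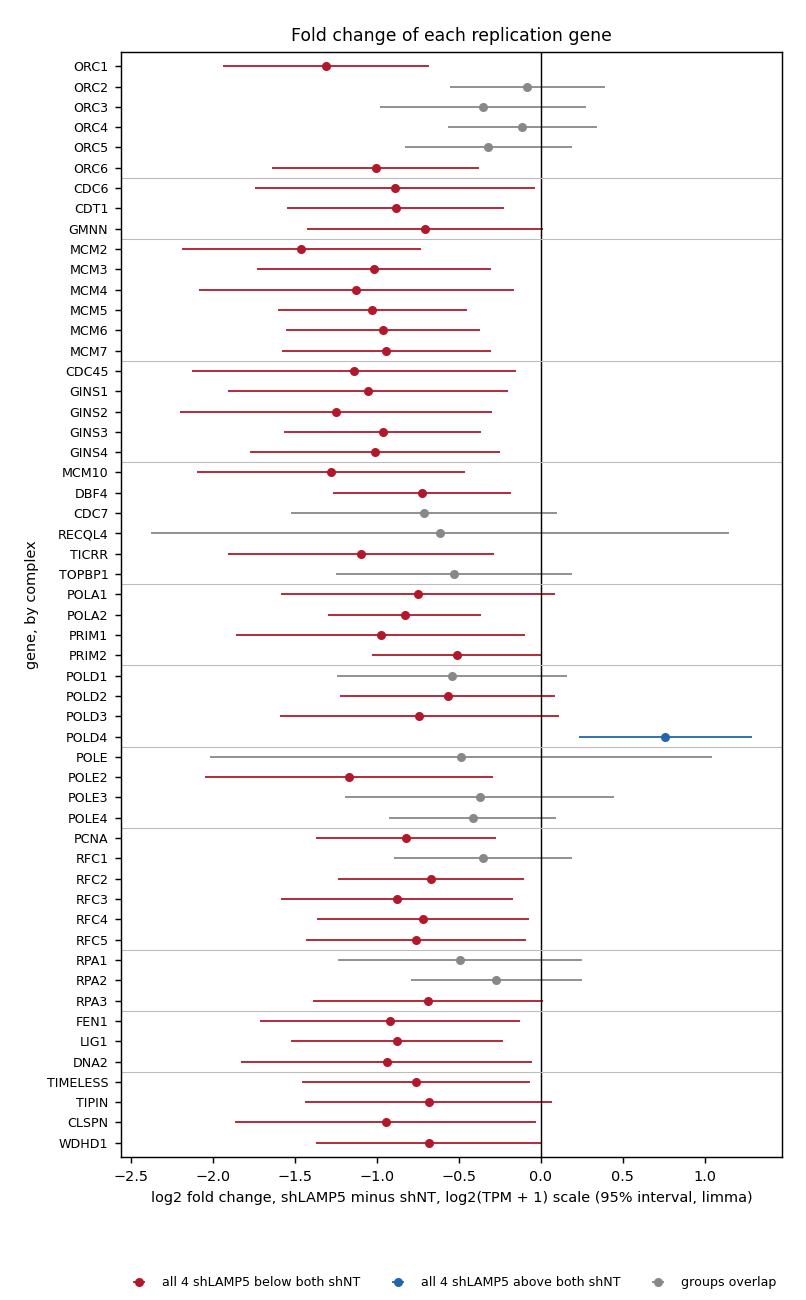
Points give each gene's log2 fold change (shLAMP5 minus shNT, log2(TPM + 1) scale) with its 95% limma interval, coloured red where every shLAMP5 value was under both shNT values (39 genes), blue where every one was over them (POLD4) and grey where the groups overlapped (14 genes). Grey lines part the 12 complexes.

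PCNA, the sliding clamp that holds polymerases on DNA, was the most abundant member per length in both groups. It measured 343, 211, 242 and 282 TPM in shLAMP5 1 to 4 and 409.9 and 539 TPM in shNT (log2 fold change -0.83, SE 0.24), with no overlap. RFC2 to RFC5, the small subunits of the loader that opens the clamp, were below both shNT libraries, between -0.88 (RFC3) and -0.67 (RFC2). RFC1, the large subunit, measured 25.5, 34.5, 20.4 and 23.8 TPM in shLAMP5 and 32.7 and 33.2 TPM in shNT (-0.35), and overlapped through shLAMP5 2.

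RPA coats single-stranded DNA. RPA3, its smallest subunit, measured 34.8, 28.8, 16.4 and 32.2 TPM in shLAMP5 1 to 4 and 45.1 and 43.1 TPM in shNT (log2 fold change -0.69), below both. RPA2 measured 77.8, 49.3, 61.2 and 72.9 TPM in shLAMP5 and 76.5 and 79.2 TPM in shNT (-0.27), and RPA1, the largest, had -0.49. The groups overlapped for RPA2 through shLAMP5 1 and for RPA1 through shLAMP5 1 and shLAMP5 4.

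Okazaki fragments are trimmed by FEN1 and DNA2 and sealed by LIG1. All 3 genes lay below both shNT libraries. LIG1 measured 28.6, 21.9, 14.4 and 23.8 TPM in shLAMP5 1 to 4 and 36.3 and 45.2 TPM in shNT (log2 fold change -0.88, SE 0.28). DNA2, among the scarcest members, measured 6.02, 2.42, 1.61 and 4.29 TPM in shLAMP5 and 7.28 and 7.11 TPM in shNT (-0.94, SE 0.38), and FEN1 had -0.92.

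The fork protection genes were also below both shNT libraries throughout. TIMELESS, which with TIPIN travels with the fork, measured 23.6, 18.1, 10.8 and 20.7 TPM in shLAMP5 1 to 4 and 29.3 and 31.8 TPM in shNT (log2 fold change -0.76). TIPIN measured 5.68, 2.33, 2.26 and 4.25 TPM in shLAMP5 and 6.26 and 5.95 TPM in shNT (-0.69). CLSPN (claspin), the checkpoint adaptor, had -0.95 and WDHD1, which ties the helicase to polymerase alpha, -0.68.

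**Figure D4:**
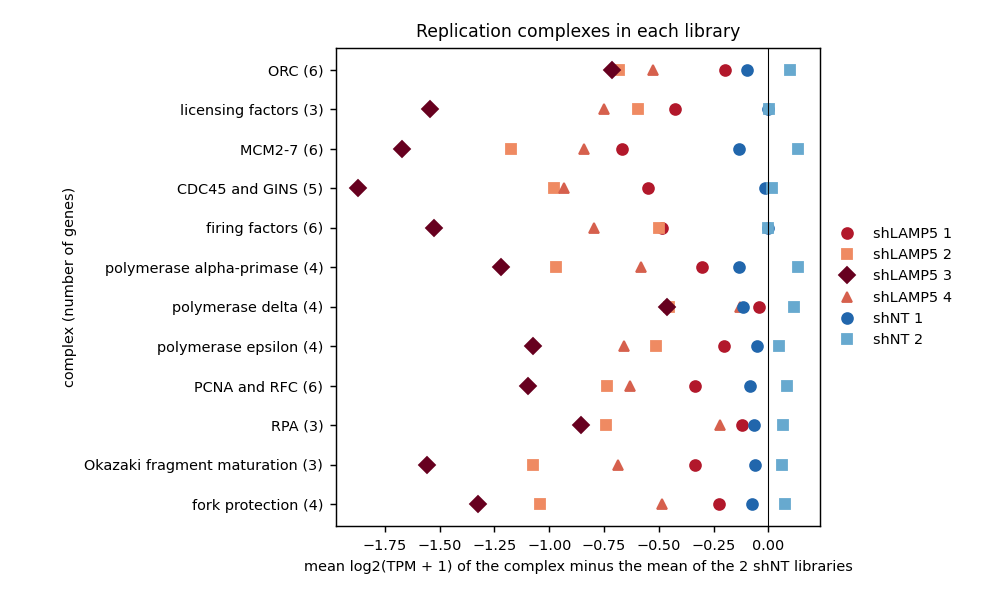
Each row is 1 of the 12 complexes, and each point 1 library's mean log2(TPM + 1) over the complex minus the mean of the 2 shNT libraries. The MCM2-7 means are 6.64, 6.13, 5.63 and 6.47 in shLAMP5 1 to 4 and 7.17 and 7.44 in shNT; in the polymerase delta row shLAMP5 1 lies right of shNT 1, and in all the others the shLAMP5 points lie left of both shNT points.

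By complex, the median log2 fold change was negative for all 12. It ran from -1.05 for CDC45 and GINS and -1.02 for MCM2-7, through -0.92 for Okazaki maturation, -0.89 for licensing, -0.79 for polymerase alpha-primase, -0.74 for PCNA and RFC, and -0.72 for both the firing and fork protection groups. It was -0.56 for polymerase delta, -0.49 for RPA, -0.45 for polymerase epsilon and -0.34 for ORC. Differences between complexes were not tested. Of the 14 members that overlapped, 4 were ORC genes, 3 were firing factors and 3 were polymerase epsilon genes.

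RECQL4 and POLE were high in shLAMP5 2, and in that library transcript level correlated weakly with GC content over all genes. Across the 54 genes the difference between shLAMP5 2 and the other 3 shLAMP5 libraries correlated with GC content at Pearson r = 0.475, and at 0.347 over the 52 without RECQL4 and POLE. For shLAMP5 1 the same correlation was -0.471. Over 12226 genes these values were 0.228 and -0.312. They are descriptions across genes, which share their libraries. On the log2 scale RECQL4 (65.5% GC) stood 2.67 and POLE (55.6%) 2.29 above the other shLAMP5 libraries. The part of GC content in these values was not tested. With a GC trend removed in each library, 42 members lay below both shNT libraries, against 14.4% of all 12226 genes. The members' median was then -0.74, against 0.0027 over those genes.

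**Figure D5:**
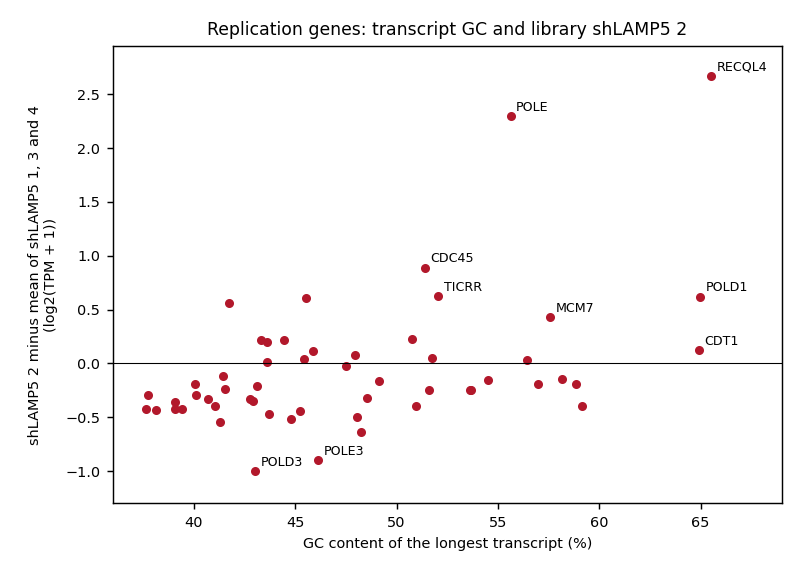
Each point is 1 of the 54 genes, with the GC content of its longest annotated transcript (percent) against log2(TPM + 1) in shLAMP5 2 minus the mean of the other 3 shLAMP5 libraries. RECQL4 and POLE lie highest, at 2.67 and 2.29, and POLD3 and POLE3 lowest, with POLE3 at -0.90.

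Of 64 other genes coupled to replication, 62 were tested, and most were lower as well. Like the members, they were chosen with earlier results of these data known. Negative values were found for 58 (93.5%, against 50.7% of all genes), with a median of -0.60, and 39 lay below both shNT libraries (62.9%, against 13.5%). At an unadjusted p under 0.05, 27 were lower (43.5%, against 5.25%) and 0 higher (against 3.72%), and none passed the adjusted threshold. Among the fork and checkpoint partners, CHEK1, the checkpoint kinase that guards stalled forks, averaged 13.3 ± 3.91 TPM in shLAMP5 (SD, n = 4) and 28.6 ± 0.264 TPM in shNT (SD, n = 2), a log2 fold change of -1.09. MTBP, which binds TICRR, had -0.70, and DBF4B, a second activator of CDC7, -0.67. The cohesion gene ESCO2 (-1.66), the clamp loader subunit DSCC1 (-1.23) and ATAD5, which unloads PCNA (-0.68), lay below both shNT libraries. So did the histone chaperones ASF1B (-1.15), CHAF1A (-0.82) and SSRP1 (-0.81). CHTF18, a clamp loader subunit named after its values were seen, measured 93.7 TPM in shLAMP5 2 and 8.25 to 13.3 TPM in the other shLAMP5 libraries, against 33.9 and 23.0 TPM in shNT, as RECQL4 and POLE did.

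TOP2A, the topoisomerase of dividing cells, had -1.35, DTL, the adaptor that marks CDT1 for destruction, -1.29, and HELLS, a chromatin remodeller, -1.03. RNASEH2C and the acetyltransferase gene KAT7 had small positive values of 0.11 and 0.087 with overlapping groups. Of 18 transcription regulators of replication genes, 11 lay below both shNT libraries and 7 overlapped. FOXM1 (-1.50), MYBL2 (-1.36), E2F8 (-1.02) and E2F1 (-0.96) were among the 11. E2F1, an activator of replication genes, averaged 7.002 ± 2.58 TPM in shLAMP5 (SD, n = 4) and 13.9 ± 2.22 TPM in shNT (SD, n = 2). TFDP2 and RBL2, a pocket protein of resting cells, were near 0, at 0.032 and 0.0094. None of these genes passed limma at an adjusted p of 0.05.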

How the data were processed

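The authors deposited 1 table of TPM values for 39771 gene identifiers in 6 MOLM-13 libraries, which sum to between 897026 and 912565 per library. The unit was read from the values, since the header names none. Per the submitters' processing notes, kallisto and hg19 were used. The version, transcript set, filters and strand setting were not given in the sources used here. Exons of 25 members overlap another gene in GENCODE 29, so reads may be split there. Besides the POLD4 overlap, same-strand cases include PRIM1 with NACA (1431 to 1933 TPM) and FEN1 with FADS2 (39.5 to 101 TPM).

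Genes that reached 1 TPM in 2 or more libraries were tested with limma 3.58.1 (R 4.3.3) on log2(TPM + 1), with a mean-variance trend, group as sole factor and Benjamini-Hochberg adjustment over all 13072. The script was tested on simulated data. The members and the other gene lists were chosen with earlier results of these data known. Values per library are given for members fixed by name, for the smallest and largest p in each complex, and for positive members, with up to 3 genes per direction from each other list. Alternatives were other pseudocounts, filters, scalings, library weights, leaving out libraries and a replicate block. The GC correction and the removal of 2 libraries together were added after the data were seen. Of 64 other genes, 2 had no matching row. Some marker lists are not reported here. Tables and figures were made with pandas 2.3.3 and numpy 2.4.6, and drawn with matplotlib 3.10.9 under Python 3.11.15.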

Additional observations from a re-analysis of the deposited data

Results flagged for a closer look

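POLD4 was marked because 1 shLAMP5 library lies far from the other 3. Its values were 89.9, 90.7, 137 and 91.0 TPM in shLAMP5 1 to 4, against 60.8 and 57.1 TPM in shNT 1 and 2, and the gap below shLAMP5 3 took 0.972 of the group's range on the log2(TPM + 1) scale, above Dixon's critical value for 4 samples. Without shLAMP5 3 the log2 fold change was 0.61. Chance marks about 1 in 20 such groups, and 68 were examined.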

How the results depend on the processing

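Over 15 other settings, 800 of 807 values of single replication genes kept their direction and their side of the adjusted threshold, and 51 of 54 members never changed sign. The members' median log2 fold change ranged from -0.94 without shLAMP5 1 to -0.59 with a replicate block, and 36 to 52 members lay below both shNT libraries, 36 being of the 51 members left by a minimum of 10 TPM (17.4% of all genes there) and 52 without shNT 1 and shLAMP5 2 together (29.9% of all genes, against 13.5% with all libraries). The log2 fold change of ORC2 was 0.016 with library weights and ran from -0.26 to 0.094 as single libraries were left out. A replicate block takes shLAMP5 3 and 4 out of the comparison, since shNT has no library with those numbers. Its fold changes rest on libraries 1 and 2 of each group. With that block the log2 fold change of POLE was 0.28 and of RECQL4 0.17. The count of 31 members lower at an unadjusted p under 0.05 was 4 with the replicate block (0.972% of all genes), 16 without shNT 1 and shLAMP5 2 together, and 8 to 41 as single libraries were left out. Library weights gave 3 adjusted calls among members and a LAMP5 log2 fold change of -1.40 (limma adjusted p 0.0302). Over all genes, adjusted calls numbered 14 with no filter, 210 with library weights and 16 with the replicate block. The 486 higher genes at an unadjusted p under 0.05 became 259 at a minimum of 10 TPM, 730 with median scaling, 1691 with library weights, 155 with the block, and 198 to 1351 with single libraries left out. The 686 lower genes became 1148 with no filter, 1166 with library weights, 127 with the block, 357 without shNT 1 and shLAMP5 2 together, and 210 to 897 with single libraries left out. The cause was not tested. The replicate numbers do not show a pairing: the deviations of same-numbered libraries from their group means correlated at -0.52 for number 1 and -0.47 for number 2. Across numbers, shNT 1 correlated at 0.47 with shLAMP5 2, 0.28 with shLAMP5 3 and -0.52 with shLAMP5 4. The values for shNT 2 were the same with opposite signs. What these libraries share was not tested. With 2 shNT libraries and no read counts, precision rests on the spread alone.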
